A study of Mus musculus with 6 samples.

Results

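The genes described here are 35 members of the interferon response, of the sensing of RNA and DNA inside cells, and of antigen presentation by MHC class I. They were measured in mouse embryonic stem (ES) cells sorted by fluorescence into 3 samples that expressed the reporter 2C::tomato and 3 samples that did not. Members were chosen by symbol from a fixed list, and 32 of the 35 had a probeset of their own on the array, of 19938 genes in all. The other 3, Isg15, H2-K1 and H2-D1, had probesets annotated with several genes, and no value is given for them. The reporter is known from earlier publications as a tomato fluorescent protein under the promoter of the endogenous retrovirus MERVL, and positive cells as ones that express genes of the two-cell embryo. All 6 samples carry the mark WT in their titles and the cells grew on gelatin in ES-KOSR medium. The protocol names treatment with vehicle or 4OHT, the latter to delete Kdm1a, without saying which of them these 6 samples received. The question for this gene group was whether cells that transcribe this retrovirus also differ in genes that respond to retroelement RNA.

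Type I interferons are secreted when sensors such as RIG-I and MDA5 meet double-stranded RNA and signal through the adaptor MAVS. The interferon then binds the receptor pair IFNAR1 and IFNAR2, and the factors STAT2 and IRF9 act at a DNA element named ISRE in the promoters of interferon-stimulated genes. Those genes include antiviral effectors and parts of the MHC class I pathway, and mouse ES cells are known to make little type I interferon and to respond to it weakly.

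The values are log2 expression from Affymetrix whole-transcript arrays, normalized by the authors, and each difference below is positive minus negative on that log2 scale, with its standard error (SE) from limma. Positive and negative arrays share replicate numbers 1 to 3, and a pair means the 2 arrays of the same number. Arrays of number 2 stood apart in both groups in Acta2 and Tagln, 2 of the 12 fibroblast markers. Acta2, a smooth muscle actin, read 11.21 and 11.82 in positive and negative array 2 and 7.70 to 9.85 in the other 4 arrays, and Tagln read 9.86 and 10.96 against 6.50 to 8.44. The mean log2 level of the other 10 fibroblast markers was 7.04 and 6.85 in arrays of number 2 and 6.60 to 6.90 in the rest. That mean did not stand apart in negative array 2, but Pdgfrb, 1 of the 10, did in both groups. Pdgfrb read 8.53 and 8.33 in positive and negative array 2 and 6.76 to 7.34 in the other 4 arrays. Of the 10, 4 were highest and 1 was lowest in number 2 of both groups. Positive array 2 also had the highest mean log2 level of 8 two-cell-stage genes, 11.46 against 8.35 and 7.23 in positive arrays 1 and 3 and 5.29 to 5.66 in the negative arrays. Between the groups, the 12 fibroblast markers had a median difference of -0.278, and -0.131 without Acta2 and Tagln. The 10 ES cell markers had mean log2 levels of 11.99 and 12.20 in positive and negative array 2 and 12.33 to 12.42 in the other 4 arrays. Of these 10, 5 were lowest and 0 highest in number 2 of both groups, against 29.6% and 22% of all genes. Of the 11 leukocyte markers measured, the mean log2 level was 6.28 to 6.71. Ptprc, which defines leukocytes, read 5.28 to 5.61, while the macrophage lysozyme gene Lyz2 read 7.74 and 6.95 in positive and negative array 1 and 4.70 to 5.06 elsewhere. Other listed markers were brighter in all 6 arrays, with Cd68 at 11.47 to 11.85 and Cd3e at 7.73 to 8.46. Of the 11 leukocyte markers, 8 were among the dimmest 30% of genes. The part of these marker levels in the results below was not tested.

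No member passed the limma test between positive and negative cells after Benjamini-Hochberg adjustment over all genes, where 0% of the 19938 genes passed. The members' log2 differences ran from -0.24 for Ifit2 to 0.53 for Stat2, with 17 above 0 and 15 below 0. Their adjusted p-values from limma lay between 0.910 and 0.999. None of the 32 members had an unadjusted limma p under 0.05, against 4.4% of all genes. The median difference was 0.006 over the members and -0.043 over all genes. When 1 array at a time was left out, it lay between -0.052 and -0.005 over the members and between -0.055 and -0.03 over all genes. Without positive array 1 both medians were -0.052, and without positive array 2 the members were at -0.036 and all genes at -0.03. In the other such fits the median of the members was the higher. In bulk samples such as these, a different share of cells expressing a gene and a different amount of its RNA per cell cannot be told apart.

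The intervals below come from the fit that ignores the pairs, and their width sets how small a difference that fit could show. For 30 of the 32 members, the 95% interval of the difference lay within 2-fold in either direction, as it did for 93.1% of all genes. These were all 10 members among the dimmest 30% of genes and 20 of the 22 brighter ones. The shares over all genes were 98% of the dim and 91% of the brighter. The authors' normalization can understate differences of dim genes, so a narrow interval says less there. The exceptions were Stat2, with an interval from -0.64 to 1.70, and Ddx58, with one from -1.01 to 1.02. Their width depended on leaving the pairs out of the fit. Taking pairs into account gave smaller SEs, 0.10 against 0.50 for Stat2 and 0.15 against 0.43 for Ddx58. Over the members the median SE was then 0.11 against 0.16. The pairs were themselves inferred from the data, and intervals from the paired fit are not given here. Two-cell-stage genes, listed for context, had a median difference of 3.514, and all 8 of those measured were higher in every positive array than in every negative one. Their direction is not independent evidence and cannot check the sort. Earlier studies of the reporter shaped the list, and it was chosen with earlier results of these data known.

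**Figure D1:**
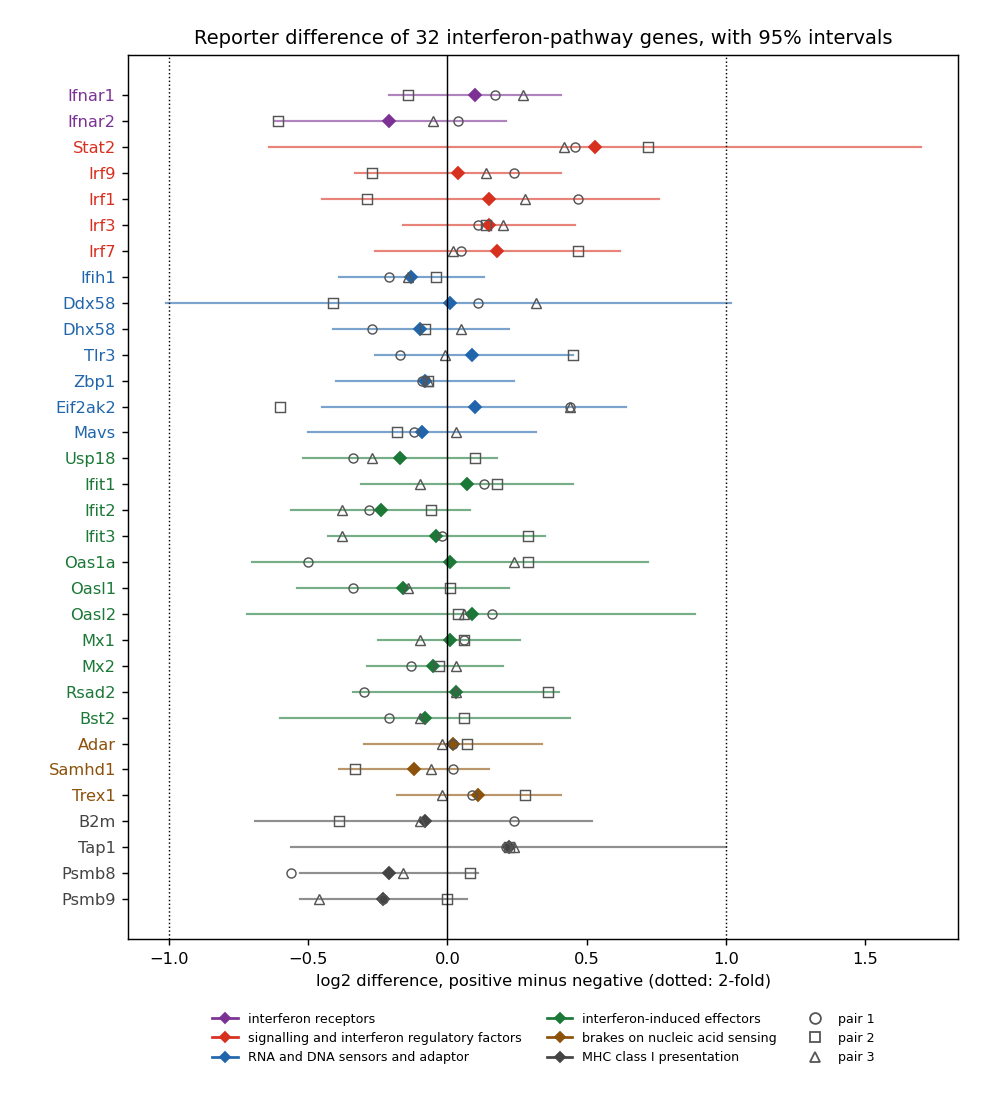
Log2 differences, positive minus negative, of the 32 members with a probeset of their own, coloured by role. Diamonds are the differences, horizontal bars their 95% intervals from limma, open symbols the differences within each same-numbered pair, and dotted lines mark 2-fold; every bar crosses 0, and those of Stat2 (-0.64 to 1.70) and Ddx58 (-1.01 to 1.02) are the 2 that pass a dotted line.

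Among the members, Ifih1 alone had groups that did not overlap, with all positive arrays below all negative ones. Such a lower separation occurred in 7.15% of all genes, a higher one in 4.08%, and either in 11.2%. Ifih1 encodes MDA5, the sensor of long double-stranded RNA. Its log2 level was 5.58, 5.57 and 5.46 in positive arrays 1 to 3 and 5.79, 5.61 and 5.60 in negative arrays 1 to 3 (probeset 10483110). The highest positive value and the lowest negative one were almost equal, and Ifih1 was among the dimmest 30% of genes. Its difference was -0.13 (SE 0.11), with a 95% interval from -0.39 to 0.13 and an adjusted p of 0.917 in limma. Without both arrays of number 2, 15 of the 32 members did not overlap, as did 47.5% of all genes, and 4 members (Ifit2, Eif2ak2, Psmb8 and Psmb9) had an unadjusted limma p under 0.05, as did 14.8% of all genes. Without negative array 2 alone, 10 members did not overlap, as did 33.1% of all genes. Members past the test numbered 0 in both settings.

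The receptor genes Ifnar1 and Ifnar2 encode the chains that bind type I interferon. Ifnar1 read 9.71, 9.40 and 9.57 in positive arrays 1 to 3 and 9.54, 9.53 and 9.30 in negative arrays 1 to 3, a difference of 0.10 (SE 0.13). Ifnar2 read 8.75, 8.62 and 8.57 in positive arrays and 8.71, 9.23 and 8.62 in negative arrays, a difference of -0.21 (SE 0.18). Negative array 2 held the highest Ifnar2 value, and without it the difference was -0.02. Both receptors overlapped between the groups.

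The 5 signalling members differed by 0.04 to 0.53, all above 0, as were 39.8% of all genes. Irf9, Irf1 and Irf7 turned below 0 in some alternatives. Irf9 was at -0.03 after a second quantile normalization and -0.09 without positive array 1, Irf1 at -0.10 on its other probeset and -0.11 without negative array 1, and Irf7 at -0.03 without positive array 2. None of the 5 passed the test and each overlapped between the groups. Stat2, the signal transducer of the interferon-activated complex, had the largest difference of any member. Its log2 level was 8.92, 10.59 and 9.40 in positive arrays 1 to 3 and 8.46, 9.87 and 8.98 in negative arrays 1 to 3 (probeset 10367224). Number 2 was highest and number 1 lowest in both groups, while each positive array exceeded the negative array of its number, by 0.46, 0.72 and 0.42. The means were 9.64 ± 0.86 (SD, n = 3) and 9.10 ± 0.71 (SD, n = 3), a 1.45-fold difference, and limma gave 0.53 (SE 0.50) with an unadjusted p of 0.319 and an adjusted p of 0.917. When the fit took replicate number as a block, the unadjusted limma p for Stat2 was 0.00236 and the adjusted p 0.396. The difference was 0.06 without positive array 2 and 0.92 without negative array 2, each of which leaves a pair incomplete. With both arrays of number 2 left out it was 0.44.

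Irf3, the factor that sensors activate to start interferon transcription, read 9.01, 9.32 and 9.17 in positive arrays and 8.90, 9.17 and 8.97 in negative arrays. Its difference was 0.15 (SE 0.13), and it was higher in each pair, by 0.11, 0.14 and 0.20. Irf7, which amplifies that transcription and is itself induced by interferon, read 5.78, 6.39 and 5.77 in positive arrays and 5.74, 5.92 and 5.75 in negative arrays. Irf7 thus stood out in positive array 2, and its difference of 0.18 (SE 0.19) was -0.03 without that array. Irf9, the DNA-binding partner of STAT2, read 8.88, 8.32 and 8.69 against 8.64, 8.59 and 8.55, a difference of 0.04 (SE 0.16). Irf1, a factor induced by interferon gamma, read 8.32, 8.56 and 8.73 against 7.85, 8.85 and 8.44. Irf9 and Irf1 were higher in positive cells in pairs 1 and 3 and lower in pair 2. Irf1 differed by 0.15 (SE 0.26) on its brighter probeset and by -0.10 on its other one.

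**Figure D2:**
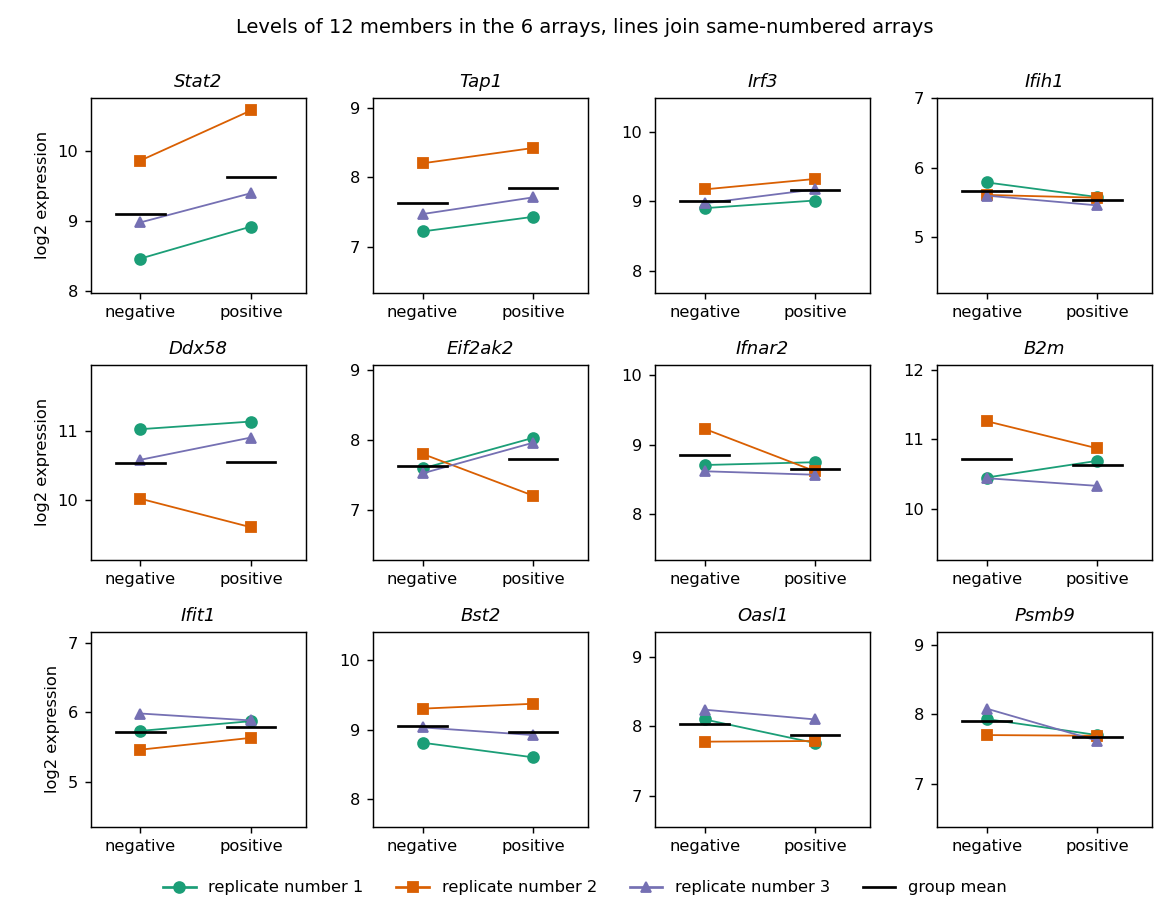
Log2 expression of 12 members in the 6 arrays, with negative arrays left and positive arrays right in each panel; colour and symbol give the replicate number, lines join the arrays of a number and black bars are group means (n = 3). Stat2 and Tap1 are highest and Ddx58 lowest in number 2 of both groups, and Ifit1 lies between 5.46 and 5.98.

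The sensors and their adaptor differed by -0.13 to 0.10. Ddx58 encodes RIG-I, the sensor of RNA with a 5′ triphosphate, and read 11.13, 9.61 and 10.90 in positive arrays 1 to 3 and 11.02, 10.02 and 10.58 in negative arrays 1 to 3 (probeset 10512067). Number 2 was lowest in both groups, and the pairs differed by 0.11, -0.41 and 0.32, so the mean difference was 0.01 (SE 0.43). Mavs read 9.96, 10.35 and 10.07 in positive arrays and 10.08, 10.53 and 10.03 in negative arrays, a difference of -0.09 (SE 0.17). Both genes overlapped between the groups.

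Eif2ak2 encodes PKR, the kinase that stops translation on double-stranded RNA. It read 8.03, 7.20 and 7.96 in positive arrays 1 to 3 and 7.59, 7.80 and 7.52 in negative arrays 1 to 3. Eif2ak2 was higher by 0.44 in pairs 1 and 3 and lower in pair 2, where the difference was -0.60. Over all pairs it came to 0.10 (SE 0.23), to 0.44 without both arrays of number 2, and to -0.05 and -0.02 without positive array 1 or 3. Tlr3, the endosomal receptor for double-stranded RNA, read 5.13, 5.59 and 5.18 against 5.29, 5.14 and 5.18, with its highest value in positive array 2. Its difference of 0.09 (SE 0.15) was -0.05 without that array. Dhx58, which encodes the RIG-I relative LGP2, read 6.53, 6.37 and 6.60 against 6.80, 6.45 and 6.55, a difference of -0.10 (SE 0.13). Zbp1, a sensor of Z-form nucleic acid, read 6.66, 6.45 and 6.74 against 6.76, 6.51 and 6.81. It was lower in each pair, by 0.07 to 0.09 in size, with a difference of -0.08 (SE 0.13).

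Interferon-induced effectors, the usual readout of an interferon response, differed by -0.24 to 0.09 over the 11 measured, 5 above 0 and 6 below. Ifit1, which binds RNA that lacks the host cap mark, read 5.87, 5.63 and 5.88 in positive arrays 1 to 3 and 5.73, 5.46 and 5.98 in negative arrays 1 to 3. Its difference was 0.07 (SE 0.16), with a 95% interval from -0.31 to 0.45. Its relative Ifit2 read 5.28, 5.33 and 5.44 against 5.57, 5.39 and 5.82, and was lower in each pair with a difference of -0.24 (SE 0.14). Ifit2 overlapped only through its positive array 3, which exceeded negative array 2. Ifit3, which has near-identical copies and is uncertain for that reason, read 4.53, 4.45 and 4.39 against 4.56, 4.17 and 4.77, a difference of -0.04 (SE 0.17).

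Rsad2, the antiviral enzyme viperin, read 5.65, 5.75 and 5.69 in positive arrays and 5.96, 5.38 and 5.65 in negative arrays, a difference of 0.03 (SE 0.16). Mx1 and Mx2, dynamin-like GTPases that block viruses, varied little from array to array. Mx1 read 4.55 to 4.78 and Mx2 4.51 to 4.70 over all 6 arrays, with differences of 0.01 (SE 0.11) and -0.05 (SE 0.10). Usp18, a protease that removes ISG15 and damps the receptor, read 6.18, 6.33 and 5.94 against 6.53, 6.23 and 6.21, a difference of -0.17 (SE 0.15). All 4 of these genes overlapped between the groups, and Usp18 was lower in pairs 1 and 3 only.

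The brightest effectors were Bst2, the membrane tether tetherin, and Oasl1, a relative of the 2′-5′ oligoadenylate synthetases. Bst2 read 8.60, 9.37 and 8.92 in positive arrays 1 to 3 and 8.81, 9.30 and 9.03 in negative arrays 1 to 3. It was highest in number 2 of both groups, with a difference of -0.08 (SE 0.22). Oasl1 read 7.76, 7.79 and 8.10 against 8.10, 7.78 and 8.24, a difference of -0.16 (SE 0.16). Oasl2 read 7.01, 7.91 and 7.04 against 6.85, 7.87 and 6.98, so that number 2 stood apart in both groups by more than the groups differed, at 0.09 (SE 0.34). Oas1a, a synthetase with near-identical copies and so uncertain, read 7.19, 6.78 and 7.13 against 7.70, 6.48 and 6.89, a difference of 0.01 (SE 0.30).

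The 3 genes that hold back nucleic acid sensing differed by -0.12 to 0.11. Adar, which edits double-stranded RNA so that MDA5 ignores it, read 9.24, 9.28 and 9.49 in positive arrays and 9.21, 9.22 and 9.51 in negative arrays, a difference of 0.02 (SE 0.13). Samhd1, which depletes the deoxynucleotides that reverse transcription needs, read 10.87, 10.60 and 10.81 against 10.85, 10.93 and 10.87, a difference of -0.12 (SE 0.11). Its lowest value was in positive array 2, and without that array the difference was -0.04. Trex1, a nuclease that clears DNA from the cytosol, read 7.70, 7.98 and 7.65 against 7.61, 7.71 and 7.67, a difference of 0.11 (SE 0.12) that came mainly from pair 2, at 0.28.

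Of the MHC class I members, 4 were measured. B2m, the light chain of every class I molecule, read 10.69, 10.87 and 10.33 in positive arrays 1 to 3 and 10.45, 11.26 and 10.44 in negative arrays 1 to 3. Its pairs differed by 0.24, -0.39 and -0.10, with a mean difference of -0.08 (SE 0.25). Tap1, a subunit of the peptide transporter, read 7.43, 8.42 and 7.71 against 7.22, 8.20 and 7.47 (probeset 10444244). Each positive array exceeded the negative array of its number by nearly the same amount, 0.21, 0.22 and 0.24, although numbers differed by far more. Its difference was 0.22 (SE 0.33), with a 95% interval from -0.56 to 1.00, and -0.06 without positive array 2. With the replicate block, the unadjusted limma p for Tap1 was 0.0454 and the adjusted p 0.413.

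The immunoproteasome subunits Psmb8 and Psmb9 were lower on average in positive cells. Psmb9 read 7.70, 7.69 and 7.62 in positive arrays 1 to 3 and 7.93, 7.70 and 8.08 in negative arrays 1 to 3 (probeset 10450145). Its difference was -0.23 (SE 0.13), and its unadjusted limma p of 0.117 was the smallest of any member, with an adjusted p of 0.910. Psmb8 read 5.15, 5.46 and 5.32 against 5.71, 5.38 and 5.48, a difference of -0.21 (SE 0.14). The pair difference of Psmb9 was near 0 in pair 2 and -0.23 and -0.46 in pairs 1 and 3, while that of Psmb8 was 0.08 in pair 2 and -0.56 and -0.16 in the others.

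By pair, the members' medians lay near 0 while those of the two-cell-stage genes varied widely. The median difference of those 8 genes was 2.970, 5.918 and 1.379 in pairs 1, 2 and 3, while that of the 32 members was 0.020, 0.023 and -0.013. All genes had medians of -0.023, -0.051 and -0.007. In pair 2, where the two-cell-stage genes differed most, 17 members were higher and 15 lower, from -0.61 for Ifnar2 to 0.72 for Stat2. The 11 effectors among them were 9 higher and 2 lower in pair 2. In pair 1 they were 3 higher and 8 lower, and in pair 3 they were 4 higher and 7 lower. Their medians were -0.208, 0.063 and -0.103 in pairs 1, 2 and 3, and 6 of the 11 were among the dimmest 30% of genes. Of all 19938 genes, 9102, 8152 and 9692 were higher in pairs 1, 2 and 3. In pair 2 the sensors and adaptor were 1 higher and 6 lower, and the receptors 0 higher and 2 lower. Signalling members were 3 higher and 2 lower there, genes that hold back sensing 2 and 1, and MHC class I members 2 and 2. Stat2, Irf3, Irf7, Oasl2 and Tap1 were higher in all 3 pairs, which makes 15.6% of members against 15.1% of all genes. Ifih1, Zbp1, Ifit2 and Psmb9 were lower in all 3 pairs, 12.5% of members against 23.7% of all genes.

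**Figure D3:**
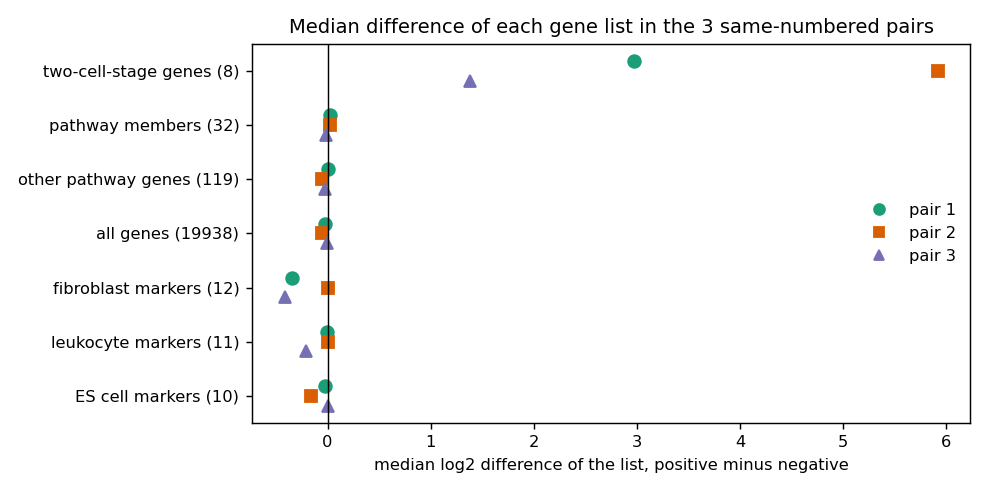
Median log2 difference, positive minus negative, of each gene list (number of genes in brackets) within the 3 same-numbered pairs, 1 symbol per pair. The medians of the 32 members are 0.020, 0.023 and -0.013 in pairs 1 to 3, while those of the two-cell-stage genes are 2.970, 5.918 and 1.379.

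Many members varied more by replicate number than by reporter. For 29 of the 32, the range over the 3 number means, each the mean of a positive and a negative array, was wider than the reporter difference, as it was for 80.9% of all genes. These are unlike quantities, a range of 3 means and a difference of 2. Samhd1, Psmb8 and Psmb9 were the exceptions. The range was 1.54 for Stat2, 1.26 for Ddx58, 0.99 for Tap1, 0.96 for Oasl2 and 0.81 for Oas1a, and its median was 0.29 over the members and 0.27 over all genes. Stat2, Irf3, Irf7, Mavs, Oasl2, Bst2, Trex1, B2m and Tap1 were highest in number 2 of both groups, which makes 9 of 32 members against 22% of all genes. Ddx58, Dhx58, Zbp1, Ifit1 and Oas1a were lowest there, 5 of 32 members against 29.6% of all genes. Of the 12 fibroblast markers, 6 were highest and 1 was lowest in number 2 of both groups. With the replicate block, 2 of the 32 members (Stat2 and Tap1) had an unadjusted limma p under 0.05, against 12% of all genes, and the smallest adjusted p of any member was 0.396.

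**Figure D4:**
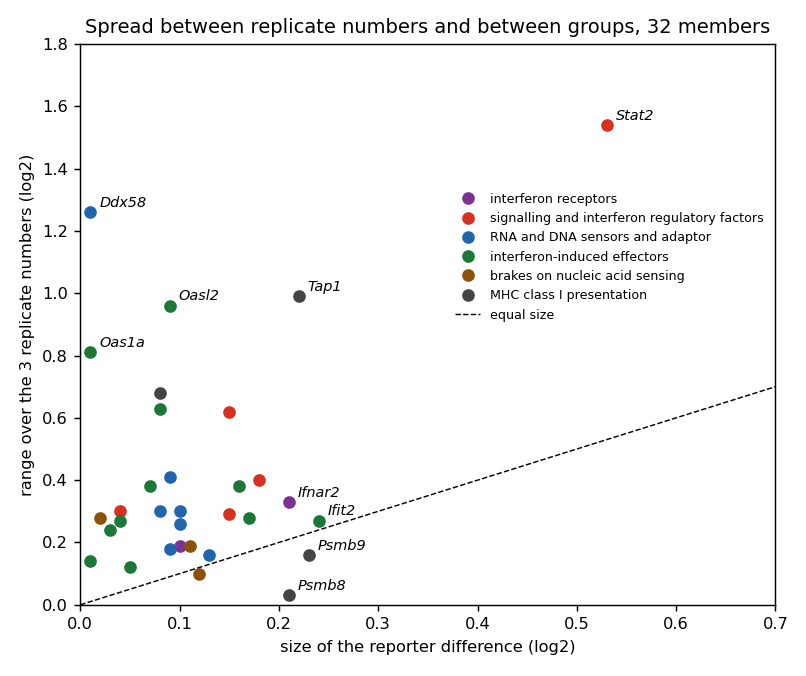
For each of the 32 members, the size of the log2 difference between positive and negative arrays (horizontal) and the range of its 3 replicate-number means (vertical, log2); colours give the role and the dashed line marks equal size. Stat2 lies at 0.53 and 1.54, and 29 members lie above the line.

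Dim genes as a whole lay slightly lower in positive cells, which bears on the 10 members among the dimmest 30% of genes. Of the 5982 genes in that range, 4530 were lower and 1452 higher, with a median difference of -0.092, and the median was -0.016 over brighter genes. The 10 dim members, such as Ifit1, Mx1, Tlr3 and Ifih1, split evenly with 5 higher and 5 lower. In pairs 1, 2 and 3 their medians were -0.150, 0.129 and -0.101, against -0.142, -0.023 and -0.100 for all genes in that range. Detection calls were not used here, so how much of a dim level is background was not tested.

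Stretches of 6 promoters are printed here because many of the members are known as genes that interferon switches on through a short promoter element. The RefSeq promoter table of build GRCm38.p6, with 250 bases before and 50 after each start, held 30 of the 35 members. It lacks Dhx58, Zbp1, Usp18, Mx1 and Mx2. The core of the ISRE was searched as GAAANNGAA, which reads TTCNNTTTC on the other strand, and matches may overlap each other. It occurred in 12 of the 30 members (40%) and in 9.76% of the 27025 genes in the table. Capitals mark the match in each line, given 5′ to 3′ on the gene's strand. Ifit1 (chr19:34640759-34640838, plus strand) and Ifit3 (chr19:34583349-34583448, plus strand) hold 3 matches each. Rsad2 (chr12:26456533-26456612, minus strand), Ifih1 (chr2:62646306-62646385, minus strand), B2m (chr2:122147507-122147586, plus strand) and Stat2 (chr10:128270248-128270327, plus strand) hold 1 each in the stretch shown.
Ifit1: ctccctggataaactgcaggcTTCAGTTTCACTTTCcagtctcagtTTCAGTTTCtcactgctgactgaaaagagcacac
Ifit3: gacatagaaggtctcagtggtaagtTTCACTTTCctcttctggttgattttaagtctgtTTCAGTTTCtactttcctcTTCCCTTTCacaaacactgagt
Rsad2: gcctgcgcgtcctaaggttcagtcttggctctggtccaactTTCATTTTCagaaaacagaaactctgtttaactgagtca
Ifih1: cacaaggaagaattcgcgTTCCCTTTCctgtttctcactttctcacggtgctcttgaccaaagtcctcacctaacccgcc
B2m: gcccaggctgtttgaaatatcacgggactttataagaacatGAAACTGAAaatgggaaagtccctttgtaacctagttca
Stat2: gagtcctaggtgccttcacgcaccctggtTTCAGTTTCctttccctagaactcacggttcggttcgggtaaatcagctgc

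The 11 measured members with this motif differed by -0.13 to 0.53, with 7 higher, 4 lower and a median of 0.01. The 16 without it in this window differed by -0.24 to 0.22, with 9 higher, 7 lower and a median of 0.061. In pairs 1, 2 and 3 the median was 0.022, 0.065 and -0.020 with the motif and 0.042, 0.003 and 0.007 without, so that the order of the 2 sets was not the same in each pair. The element of interferon gamma, GAS, was searched as TTCNNNGAA, which reads the same on both strands and can share its last letters with an ISRE match, as it does in Bst2. It occurred in 10 of the 30 members (33.3%) and in 9.55% of the genes in the table. The 10 members with it had a median difference of -0.036, and the 17 measured members without it one of 0.037. A match is a description of letters and shows no binding.

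Beyond the members, 119 other genes of the same pathways were measured, from a list of 140 symbols that holds older and newer names of some genes. None passed the limma test after adjustment, and 7 had an unadjusted limma p under 0.05, 5.88% of them against 4.4% of all genes. Their median difference was -0.027, with 50 above and 69 below 0, so that 58.0% lay below 0 against 60.2% of all genes. The groups did not overlap for 10 of them, 8.40% against 11.2% of all genes. Of the 16 interferon genes measured, 15 lay below 0, with a median of -0.114, and 11 of the 16 were among the dimmest 30% of genes. Over all genes 60.2% lay below 0, and of the dimmest 30% of genes 75.7% did, with a median of -0.092. Ifnb1, among the first interferons made after sensing, read 4.89, 4.82 and 5.04 in positive arrays and 5.16, 4.71 and 4.97 in negative arrays, a difference of -0.03 (SE 0.14). The interferon alpha genes have near-identical copies, so their separate values are uncertain.

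Cd74, the invariant chain of MHC class II, had the largest difference among these other genes without overlap. It read 7.76, 7.92 and 7.41 in positive arrays 1 to 3 and 7.31, 6.84 and 7.03 in negative arrays 1 to 3. Every positive array exceeded every negative one, with a difference of 0.63 (SE 0.18), an unadjusted limma p of 0.00989 and an adjusted p of 0.910. The class II genes H2-Aa, H2-Ab1 and H2-Eb1 differed by 0.19 (SE 0.28), 0.13 (SE 0.25) and -0.00 (SE 0.17), and Ciita, their activator, by -0.04 (SE 0.19). The other 6 with an unadjusted limma p under 0.05 were named after their values were seen. Ifnlr1 (a receptor for lambda interferon), Ikbke (a kinase that activates IRF3), Ube2l6 (an enzyme that attaches ISG15) and Phf11d were higher, by 0.47 (SE 0.19), 0.33 (SE 0.12), 0.27 (SE 0.11) and 0.61 (SE 0.24). Ifna5 and Socs3, an inhibitor of cytokine signalling, were lower, at -0.37 (SE 0.14) and -0.44 (SE 0.17). Phf11d has near-identical copies, and its groups overlapped, as did those of Ifnlr1.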

How the data were processed

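The values are log2 expression per probeset and array, as deposited by the authors. The submitters' processing notes name RMA (background correction, quantile normalization, summary of probes) in Affymetrix Expression Console. Per the labels' protocols, 100 ng of total RNA per sample was labelled. Software versions were not given in the sources used here. RMA pulls dim probesets together, which can understate differences of dim genes, and quantile normalization removes any difference in total RNA. Array medians over 35556 probesets lay between 6.954 and 7.038, and arrays correlated at 0.969 to 0.995 across genes. The number of arrays limits the precision.

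Symbols came from the platform annotation, which paired 21789 probesets with 1 symbol and 1621 with several, while 12146 were not listed. The brightest probeset stood for each of the 999 genes that had several, which left 19938 genes with no filter on dim ones. Groups came from sample titles. Positive and negative arrays were tested against each other in limma 3.58.1 under R 4.3.3 (moderated two-sided test, threshold 0.05 after Benjamini-Hochberg adjustment). The script was tested on simulated data with independent noise in each array, which does not cover the correlation between same-numbered arrays given below. Whether the samples of a group were separate cultures is not in the labels. The p-values therefore cover only the spread among the samples at hand, and that spread may be technical. Deviations from the group means correlated between same-numbered arrays at 0.546, 0.553 and 0.457, so the numbers were taken to pair the arrays from the data, and a fit with the number as a block was an alternative.

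The members and lists were chosen with earlier results of these data known. The naming rule took members without overlap, with an unadjusted p under 0.05 or a difference of 0.3 or more, the 2 brightest of each role, and other pathway genes past the test or without overlap and at least 0.5 apart. Values of the remaining members, Ifnb1, the class II genes and Nlrc5 were added after values were seen. So were those of the markers Acta2, Tagln, Pdgfrb, Lyz2, Ptprc, Cd68 and Cd3e. The counts by pair and by number and the promoter stretches were also added then. Alternatives were the block, median centring, a second quantile normalization, a filter on the dimmest 30% of genes, the second probeset, array weights, and leaving out each array or both of number 2.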

Additional observations from a re-analysis of the deposited data

How the results depend on the processing

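Members past the limma test numbered 0 of 32 in the analysis as reported and in each of the 13 alternatives, where the smallest adjusted p over all genes was 0.0673, with array weights. Members at an unadjusted p under 0.05 numbered 0 as reported, 2 with the replicate block (12% of all genes) and 7 with array weights (24.3% of all genes). They numbered 4 without both arrays of number 2 (14.8% of all genes). When 1 array was left out, they numbered 0 to 2 (2.25% to 9.79% of all genes). Over all genes, 878 had an unadjusted p under 0.05 as reported and 2394 with the block. The block passed 0 genes after adjustment, and among the other pathway genes the count at an unadjusted p under 0.05 went from 7 to 8, by Nlrc5 (0.119 as reported and 0.0412 with the block). Nlrc5 was lower in positive cells, at -0.28 (SE 0.16 as reported), on the brightest of its 19 probesets. The replicate block changed no other call of a member or other pathway gene. Members without overlap numbered 1 as reported, 3 after median centring or a second quantile normalization (13.8% and 14.0% of all genes), 0 without the dimmest 30% of genes, which drops Ifih1, 15 without both arrays of number 2 (47.5% of all genes), and 2 to 10 when 1 array was left out, where fewer arrays overlap less often (16.0% to 33.1% of all genes against 11.2%). The median over the members was -0.026 after a second quantile normalization, -0.017 with second probesets, -0.020 without both arrays of number 2 and -0.052 to -0.005 when 1 array was left out.

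The direction of 21 of the 32 members turned in at least 1 alternative, and that of Ifih1, Ifit2, Ifnar1, Irf3, Oasl1, Psmb8, Psmb9, Samhd1, Stat2, Trex1 and Usp18 in none. With array weights the differences of Adar, B2m, Ifit1, Ifnar2, Mx2 and Tlr3 were -0.14, 0.09, -0.08, 0.02, 0.03 and -0.01. After a second quantile normalization those of Adar, Ddx58, Irf9 and Oas1a were -0.03, -0.02, -0.03 and -0.02, and after median centring those of Ddx58 and Mx1 were -0.0034 and -0.0023. The second probeset of Irf1 gave -0.10. Without both arrays of number 2, B2m, Mx1, Oas1a, Rsad2 and Tlr3 were at 0.07, -0.02, -0.13, -0.13 and -0.09. The cause was not tested. When 1 array was left out, the difference ran for Adar from -0.06 to 0.12, B2m from -0.22 to 0.19, Bst2 from -0.28 to 0.10, Ddx58 from -0.29 to 0.47, Dhx58 from -0.17 to 0.00084, Eif2ak2 from -0.05 to 0.36, Ifit1 from -0.06 to 0.20, Ifit3 from -0.21 to 0.10, Irf1 from -0.11 to 0.39, Irf7 from -0.03 to 0.29. In the same way, it ran for Irf9 from -0.09 to 0.19, Mavs from -0.20 to 0.07, Mx1 from -0.04 to 0.07, Mx2 from -0.10 to 0.0026, Oas1a from -0.26 to 0.35, Oasl2 from -0.21 to 0.40, Rsad2 from -0.11 to 0.18, Tap1 from -0.06 to 0.51, Tlr3 from -0.05 to 0.18, Zbp1 from -0.17 to 0.01. Low signal limits the 10 dim members, and 3 arrays per group limit all of them.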
